A study of Mus musculus with 4 samples.

Results

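Nuclear genes for the subunits of oxidative phosphorylation were followed in mouse embryos at the 2-cell stage. They were chosen by symbol among the protein-coding genes of the count table, with the complex I assembly factors left out, which gave 86 of the 53715 genes in the table. The set holds 38 genes of complex I, 4 of complex II, 9 of complex III, 18 of complex IV and 17 of complex V. The rule goes by name, so a few members are not fixed subunits. Atp5s encodes coupling factor B, Ndufa4 encodes a protein found with complex IV, and Cox7a2l encodes a factor that joins complexes III and IV.

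The study set 2 control libraries against 2 knockdown libraries, each made from poly(A) RNA of whole embryos of a C57BL/DBA2 background. Zygotes from the oviduct were injected with 20 μM of a small interfering RNA, which carried either no named target (siNC, the control) or SPENH0335 as its target (knockdown), and grew in KSOM medium to the 2-cell stage. From the title of the series SPENH0335 is taken to be a transcript of an enhancer, and the comparison asks which genes respond to its knockdown. All 4 libraries share injection and culture. The labels state neither the embryos per library nor separate collections, so a p-value here reflects only library-to-library spread, perhaps technical. The table lists Ensembl genes and no row carries the name SPENH0335, so its own level was not analysed here.

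Oxidative phosphorylation makes ATP in the inner mitochondrial membrane. Complex I takes electrons from NADH and complex II from succinate, complex III passes them to cytochrome c, complex IV hands them to oxygen, and complex V uses the proton gradient that builds up to make ATP. Most subunits are encoded in the nucleus, while a small core of complexes I, III, IV and V is encoded in mitochondrial DNA. The early embryo inherits its mitochondria and many of these mRNAs from the egg and lives on pyruvate and oxidative phosphorylation before it turns to glucose.

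Total counts ran from 78865491 to 99011109 per library, and the members took 0.262 to 0.309% of them. Levels are given in CPM, a gene's counts scaled to a common library size, with control replicates 1 and 2 and then knockdown replicates 1 and 2 in that order throughout. All 12 genes listed as markers of the 2-cell embryo passed the filter on low counts. They summed to 2355 and 2346 CPM in control and 2515 and 2771 CPM in knockdown. Most of this sum came from Obox1, at 971 and 933 against 937 and 1198 CPM, and Obox7, at 303 and 291 against 287 and 379 CPM. The sum therefore mainly follows these Obox genes. At an unadjusted p under 0.05 there were 3 higher and 1 lower of these 12, against 3.85% of the genes tested. The higher ones were Zscan4f (147 and 158 against 238 and 211 CPM), Zscan4d (141 and 139 against 183 and 177 CPM) and Zscan4c (98.5 and 125 against 160 and 151 CPM), which are close copies of one another and may share reads. The lower one was Arg2 (135 and 109 against 78.9 and 85.1 CPM). Markers of cumulus and granulosa cells, 8 of 10 tested, gave 57.5 and 51.1 CPM in control and 45.9 and 63.8 CPM in knockdown, with Inha at 0 throughout. Of these Cyp19a1 was highest, at 47.4 and 38.6 against 36.8 and 55.7 CPM. Has2 was at 2.65 and 2.58 against 0.93 and 0.46 CPM, and Foxl2 was at most at 1.1 CPM. For sperm, 7 of 10 tested, the sums were 15.9 and 14.1 CPM against 17.7 and 9.71 CPM, with Gapdhs and Smcp at 0, Pgk2 at most at 8.16 and Ldhc at most at 7.57 CPM. For blood, oviduct and stroma, 8 of 10 tested, they were 111 and 118 CPM against 114 and 90.6 CPM. Highest of this list was Pecam1, at 50.5 and 49.4 against 49.3 and 61.1 CPM. Hba-a1 was at 26.2 and 27.1 against 24.9 and 10.4 CPM, and Epcam at 26.1 and 17.5 against 32.8 and 14.7 CPM. Hbb-bs and Col3a1 were at 0, Krt7 at most at 2.04 and Lyz2 at most at 19.4 CPM. Ptprc was at most at 1.39, Col1a1 at most at 1.02 and Ovgp1 at most at 2.14 CPM. Pecam1, Hba-a1 and Epcam thus made most of this sum. Whether their reads came from such cells or from the embryo itself was not tested, so the sum does not measure other cells. At an unadjusted p under 0.05 there was 1 lower cumulus marker (Has2), 1 lower blood, oviduct or stroma marker (Krt7) and 0 sperm markers. No marker of any list was called. The part of these other cells in the results was not tested. In whole embryos, fewer cells and less RNA per cell cannot be told apart.

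Promoters of many of these genes are known to carry sites for NRF1, for the ETS factor GABP and for YY1, which act on many mitochondrial genes. Promoter windows of 300 bases, from 250 before to 50 after a start, were found in RefSeq (GRCm38.p6) for 67 members by symbol. The NRF1 letters (GCGCA, any base, then GCGC), on either strand, were in the windows of 17 members, or 25.4%, against 5.19% of all 27025 genes with a window. The ETS letters CCGGAAG, on either strand, were in 16 members, or 23.9%, against 9.93% of all genes. The YY1 letters AAGATGGCG, on either strand, were in 7 members, or 10.4%, against 1.64% of all genes. At least 1 of the 3 was in 34 members, or 50.7%, against 15.1% of all genes. The 27025 genes were not limited to protein-coding or expressed genes, nor matched to the members in GC content. Matches to different motifs were counted whether or not they overlap, and a match is a string of letters, not a measured binding site.

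The windows below run from 170 bases before to 30 after the start, on the strand of the gene, with matches to the NRF1 or ETS letters in capitals. Sdha and Cox6a1 are shown for their repeated NRF1 matches, Cox8a is the member with the highest level per length, and Cox6b1 and Cox6b2 are a pair of paralogous forms whose levels differ in the embryo. The Sdha window is at chr13:74350211-74350410, that of Cox6a1 at chr5:115348929-115349128, that of Cox8a at chr19:7217587-7217786, that of Cox6b1 at chr7:30626085-30626284 and that of Cox6b2 at chr7:4753065-4753264, all on the minus strand.
Sdha: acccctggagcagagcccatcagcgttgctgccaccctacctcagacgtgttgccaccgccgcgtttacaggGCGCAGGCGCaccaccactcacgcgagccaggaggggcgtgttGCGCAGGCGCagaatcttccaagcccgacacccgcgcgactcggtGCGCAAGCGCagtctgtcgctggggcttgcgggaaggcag
Cox6a1: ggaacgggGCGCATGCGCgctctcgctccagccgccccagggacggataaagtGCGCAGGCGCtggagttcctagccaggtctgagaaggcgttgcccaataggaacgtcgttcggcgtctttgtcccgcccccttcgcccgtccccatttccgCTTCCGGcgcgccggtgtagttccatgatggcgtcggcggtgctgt
Cox8a: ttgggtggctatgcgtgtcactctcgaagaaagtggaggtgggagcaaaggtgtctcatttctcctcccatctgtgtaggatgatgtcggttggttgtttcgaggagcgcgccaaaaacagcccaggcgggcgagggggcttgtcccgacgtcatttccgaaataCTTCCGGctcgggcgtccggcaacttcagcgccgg
Cox6b1: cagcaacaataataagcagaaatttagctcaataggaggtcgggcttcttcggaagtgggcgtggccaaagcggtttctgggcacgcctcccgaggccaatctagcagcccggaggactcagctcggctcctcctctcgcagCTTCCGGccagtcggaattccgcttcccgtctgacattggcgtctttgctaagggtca
Cox6b2: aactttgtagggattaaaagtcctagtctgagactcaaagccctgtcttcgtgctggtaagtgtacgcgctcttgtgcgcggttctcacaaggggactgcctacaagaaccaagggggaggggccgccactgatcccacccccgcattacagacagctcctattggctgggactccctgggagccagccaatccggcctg
The Sdha window holds the NRF1 letters at 3 places, the Cox6a1 window at 2 and the ETS letters once, and the windows of Cox8a and Cox6b1 show the ETS letters once each. None of the 3 motifs is in the Cox6b2 window. Which starts the embryo uses was not measured.

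Among the 84 members that passed the filter, none was called higher or lower in knockdown embryos by edgeR's quasi-likelihood test with Benjamini-Hochberg adjustment over all genes (threshold 0.05, smallest adjusted p 0.9999), against 0% of the 25565 genes tested. At an unadjusted p under 0.05 there were 0 members as well, against 3.85% of the genes tested, 1.56% higher and 2.29% lower. With DESeq2 0 members were called and 0 had an unadjusted p under 0.05, against 53 called and 4.01% at that p among 36863 genes. With limma-voom 0 members were called and 0 had such a p, against 0 called and 3.13% at that p among 25565 genes. The 95% interval of the fold change lay within 2-fold in either direction for 56 members, or 66.7%, against 31.8% of the genes tested, most of which have fewer counts. Among members with a mean of at least 10 CPM it did so for 51 of 56, or 91.1%, against 88.2% of the 7454 protein-coding genes at that level. The log2 fold change was above 0 for 36 members and below 0 for 48, with a median of -0.05, against a median of -0.0025 over all genes tested.

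The groups of 2 libraries did not overlap for 23 members, or 27.4%, against 32.7% of the genes tested. In 8 of them both knockdown libraries were above both controls, against 15.6% of the genes tested in this direction, and in 15 both were below, against 17.1%. The members' counts are thus near or under the share found among all genes.

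**Figure D1:**
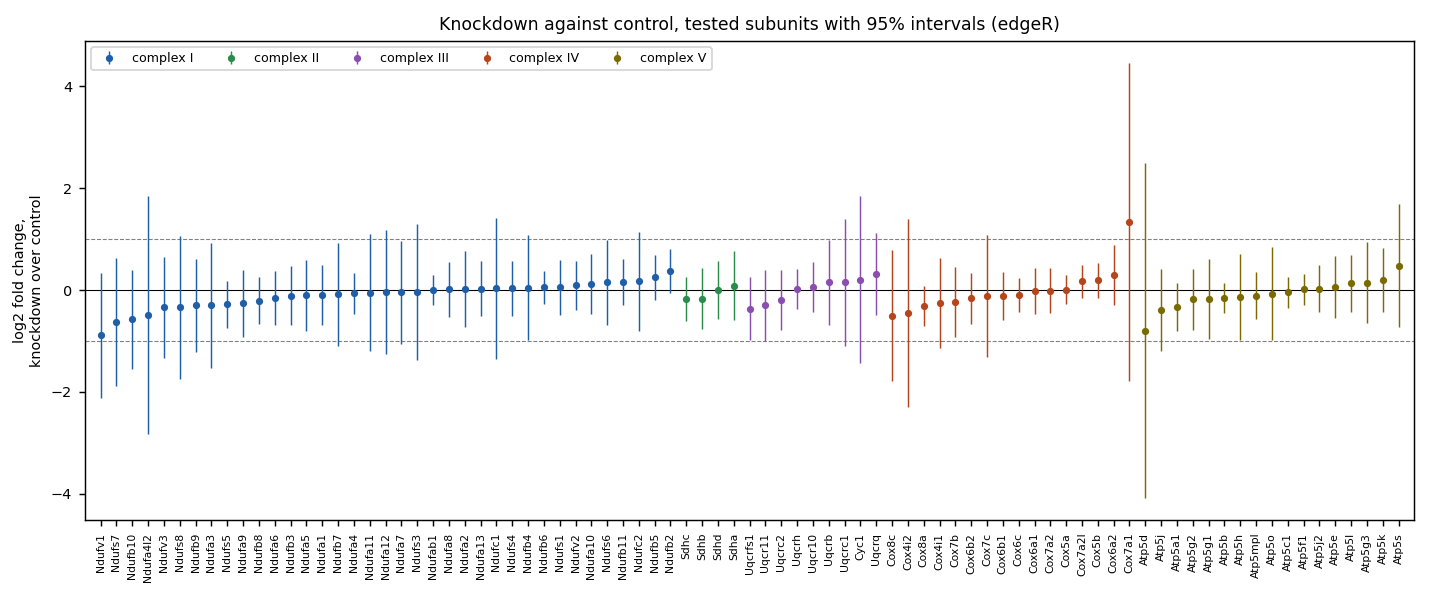
The y axis gives the log2 fold change of knockdown over control for the tested members but 1 that is not shown, grouped by complex and ordered by value. Bars are 95% intervals from edgeR over 2 libraries per group, the dashed lines mark a 2-fold change, and every bar spans 0; the widest belong to genes of low level such as Cox7a1 and Atp5d.

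Levels were compared between genes as CPM per kb of the longest principal transcript, as the mean ± SD over the 4 libraries. Across members the levels ran from 292 ± 47.2 CPM per kb for Cox8a down to 0 for Cox8b. By this length complex IV had the highest median among its tested members, 54.5 CPM per kb. Complex V followed with 24.9, complex III with 14.9, complex II with 13.8 and complex I with 10.2. With all exons of each gene complex IV stayed highest, with Cox6a1 and Cox7b in its middle at 45.0 and 27.7 CPM per kb. The order below it changed. The middle members of complex II, Sdhd and Sdhc, were then at 15.1 and 12.2. Those of complexes V and III, Atp5e and Uqcrb, were at 9.39 and 9.10. All protein-coding genes tested had a median of 2.41 CPM per kb.

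**Figure D2:**
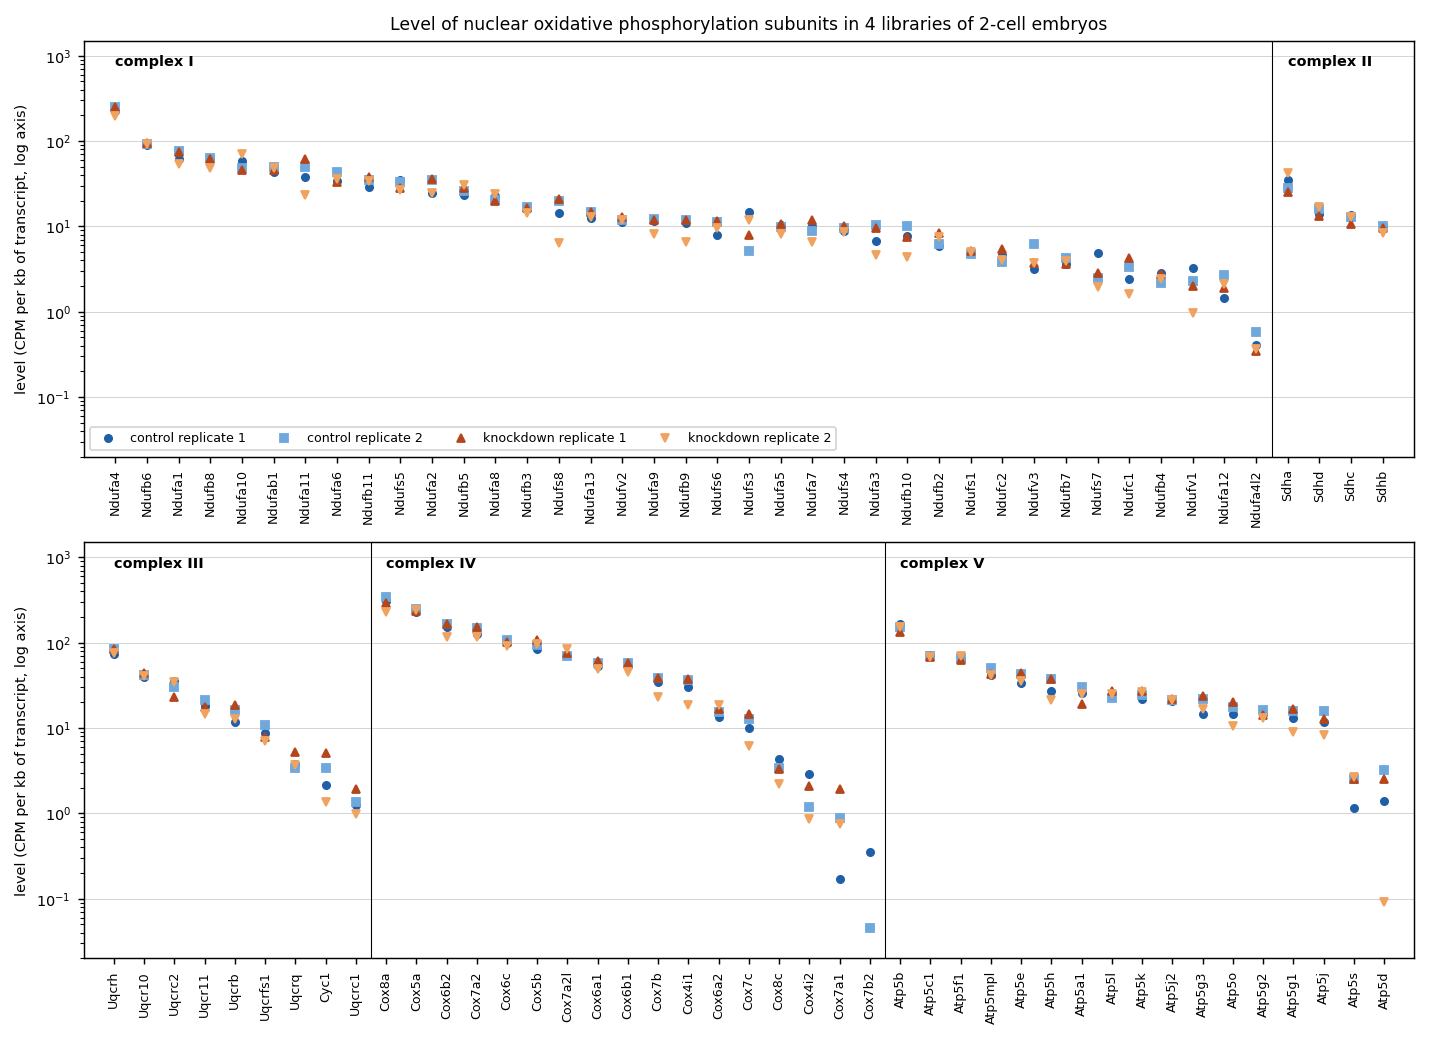
The y axis gives the level in CPM per kb of transcript on a log axis, 1 column per member (1 member is not shown) and 1 symbol per library, sorted within each complex; values of 0 (all of Cox8b, and Cox7b2 in knockdown) cannot be drawn. Cox8a, Cox5a and Ndufa4 stand highest, and for most genes the 4 symbols lie close together, while Atp5d in knockdown replicate 2 falls far below its other 3.

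Complex I summed to 914 and 970 CPM in control and 966 and 895 CPM in knockdown, with the knockdown libraries on both sides of control replicate 1. Ndufa4 had the highest level per length, 231 ± 26.1 CPM per kb, and was at 136 and 153 CPM in control and 155 and 121 CPM in knockdown. The knockdown values enclose both control values (log2 fold change -0.07, SE 0.16). Ndufb6, an accessory subunit of the membrane arm, was at 59.4 and 60.7 CPM in control and 62.9 and 61.7 CPM in knockdown, both knockdown values above both controls, and its 95% interval ran from -0.27 to 0.38 on the log2 scale. Ndufa1, a small membrane subunit needed for assembly, was at 25.9 and 31.8 CPM in control and 31.4 and 22.7 CPM in knockdown. Ndufab1, the mitochondrial acyl carrier protein, was at 152 and 175 CPM in control and 161 and 166 CPM in knockdown, which lie between the control values.

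The smallest p among all members belonged to Ndufb2, an accessory subunit encoded on chromosome 6 (39592574 to 39603382, GRCm38). It was at 26.1 and 27.5 CPM in control and 37.0 and 32.6 CPM in knockdown. Both knockdown libraries were above both controls, with a log2 fold change of 0.38 (SE 0.17, unadjusted p 0.0733, adjusted p 0.9999, edgeR). Its exons overlap those of Braf (146 bases) and Gm16272 (156 bases) on the opposite strand and of Gm42420 (145 bases) on the same strand. No source used here states whether counting used strand or how shared reads were assigned.

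The 7 nuclear core subunits of complex I carry its flavin and iron-sulfur centres. They had a median log2 fold change of -0.34, with 5 below 0, against -0.04 for the 31 accessory subunits. The share above 0 was 28.6% of the 7, against 45.2% of the accessory subunits and 49.7% of the genes tested. The median of the 7 is the value of Ndufs8, whose groups overlap. The interval of the fold change lay within 2-fold in either direction for only 2 of the 7. Whether core and accessory subunits differ was not tested. Ndufv1, which binds NADH, was at 5.40 and 3.82 CPM in control and 3.36 and 1.62 CPM in knockdown. The groups do not overlap, and its log2 fold change was -0.89 (SE 0.49, unadjusted p 0.123, adjusted p 0.9999, edgeR). Ndufs8 was at 14.6 and 20.1 CPM in control and 21 and 6.38 CPM in knockdown, so that 1 knockdown library was the highest of the 4 and the other the lowest. Ndufs3 was at 15.6 and 5.45 CPM in control and 8.2 and 12.4 CPM in knockdown, a spread within the control group wider than that between groups. Ndufs1, the largest core subunit, was at 13.5 and 12.5 CPM in control and 13.6 and 13.4 CPM in knockdown. Ndufs7 was at 4.86 and 2.42 CPM in control and 2.82 and 1.90 CPM in knockdown, and Ndufv2 at 19.2 and 20.5 CPM in control and 22.2 and 20.2 CPM in knockdown.

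In complex II, succinate dehydrogenase, all 4 subunits are nuclear. It summed to 175 and 154 CPM in control and 134 and 193 CPM in knockdown, so the lowest and the highest library were both knockdown. Sdha, the flavoprotein subunit, took 57.7% of this sum and was at 102 and 81.2 CPM in control and 72.7 and 122 CPM in knockdown. Its log2 fold change was 0.08 (SE 0.27). Without knockdown replicate 2 it was -0.33, and without knockdown replicate 1 it was 0.41. Sdhb, the iron-sulfur subunit, was at 11.6 in both control libraries and at 11 and 9.66 CPM in knockdown. Sdhc and Sdhd anchor the enzyme in the membrane. Sdhc was at 43.5 and 40.8 CPM in control and 34.1 and 40.6 CPM in knockdown, and Sdhd at 17.2 and 20.0 CPM in control and 16.4 and 20.8 CPM in knockdown.

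Complex III summed to 163 and 167 CPM in control and 156 and 158 CPM in knockdown. Both knockdown libraries were below both controls, by 0.07 on the log2 scale between the means. With 2 libraries against 2 an exact two-sided permutation test cannot give less than p = 0.333. Uqcrc2, whose own groups overlap, took 36.6% of the complex III sum. Member by member, the log2 fold change was above 0 for 6 of the 9, or 66.7%, against 49.7% of the genes tested. It was below 0 for 3, and the median was 0.06. Uqcrh, the hinge protein, was highest per length at 79.4 ± 5.08 CPM per kb and was at 40.6 and 45.7 CPM in control and 45.9 and 41.5 CPM in knockdown. Uqcr10, a small subunit, was at 17.1 and 18.3 CPM in control and 19.2 and 17.8 CPM in knockdown. Uqcrc2, a core protein, was at 68.2 and 57.6 CPM in control and 43.5 and 66.7 CPM in knockdown. Uqcrfs1, the Rieske iron-sulfur protein that passes electrons to cytochrome c1, was at 11.8 and 14.6 CPM in control and 10.9 and 9.68 CPM in knockdown. Its groups do not overlap (log2 fold change -0.37, SE 0.25, unadjusted p 0.195). Uqcr11 was at 8.01 and 9.57 CPM in control and 7.78 and 6.50 CPM in knockdown. Cyc1, cytochrome c1 itself, was at 3.32 and 5.18 CPM in control and 7.70 and 2.1 CPM in knockdown, with both extremes in the knockdown group. Uqcrc1, the partner of Uqcrc2 in the complex, was the lowest of complex III at 1.39 ± 0.40 CPM per kb, against 31.1 ± 5.99 for Uqcrc2.

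Complex IV, cytochrome c oxidase, summed to 852 and 933 CPM in control and 923 and 783 CPM in knockdown, and the groups overlap. Cox8a was the highest member of all per length and was at 169 and 187 CPM in control and 161 and 125 CPM in knockdown. Both knockdown libraries were below both controls, with a log2 fold change of -0.31 (SE 0.16, unadjusted p 0.0963, adjusted p 0.9999, edgeR). Without knockdown replicate 1 its fold change was -0.50 (adjusted p 0.186, against 0.740 to 0.9999 with another library left out). Cox5a was at 146 and 161 CPM in control and 152 and 157 CPM in knockdown, and its 95% interval, from -0.27 to 0.29, was narrow. Cox5b was at 73.4 and 81.8 CPM in control and 94.0 and 82.9 CPM in knockdown (log2 fold change 0.19, SE 0.14). Cox6c was at 73.5 and 79.4 CPM in control and 75.2 and 68.1 CPM in knockdown. Cox7c was at 5.40 and 6.90 CPM in control and 8.01 and 3.35 CPM in knockdown.

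Several subunits of complex IV exist as paralogous forms that differ between tissues. Cox6b2, known as the testis form of subunit 6b, was at 89.0 and 97.7 CPM in control and 98.1 and 68.6 CPM in knockdown. Cox6b1, the widespread form, was at 33.4 and 35.4 CPM in control and 35.6 and 28.1 CPM in knockdown. Per length Cox6b2 was thus 2.58 to 2.92 times as high as Cox6b1 in each of the 4 libraries. With the shortest principal transcripts the ratio of the means was 3.55, and with all exons of each gene it was 1.70. The 10 sperm markers beside it summed to 9.71 to 17.7 CPM, with Pgk2 at 1.66 to 8.16, Ldhc at 2.68 to 7.57, Prm2 at 1.8 to 2.77 and Prm1 at 0.113 to 0.321 CPM, and their part in the level of Cox6b2 was not tested.

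Cox6a1, the widespread form of subunit 6a, was at 30.9 and 32.7 CPM in control and 34.6 and 28.3 CPM in knockdown. Cox6a2, the heart and muscle form, was at 9.25 and 10.4 CPM in control and 11.5 and 12.6 CPM in knockdown. Cox6a1 was 2.68 to 3.98 times as high per length, with the lowest ratio in knockdown replicate 2. The Cox6a2 groups do not overlap, but the difference did not pass the test (log2 fold change 0.30, SE 0.24).

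Cox4i1 was at 23.3 and 27.8 CPM in control and 28.4 and 14.3 CPM in knockdown. It was 10.6 to 30.5 times as high per length as Cox4i2, the form induced by low oxygen in lung, which was at 0.639 to 2.11 CPM. Cox7a2 was at 82.8 and 97.4 CPM in control and 101 and 78.0 CPM in knockdown, 79.4 to 729 times as high per length as the muscle form Cox7a1. Cox7a1 had 6 and 28 counts in control and 73 and 28 in knockdown, too few to show a difference. Cox7a2l was at 77.2 and 74.8 CPM in control and 80.8 and 90.8 CPM in knockdown, and both knockdown libraries were above both controls (log2 fold change 0.17, SE 0.13). Per length Cox7a2 was 1.40 to 2.13 times as high as Cox7a2l. Cox8a was 70.1 to 103 times as high per length as the testis form Cox8c, which was at 1.01 to 2.01 CPM. Ndufa4 was 427 to 739 times as high per length as Ndufa4l2, a form induced by low oxygen, which had 31 to 44 counts per library. These ranges depend on the length used. With all exons of each gene the ratio of the means was 281 for Ndufa4 to Ndufa4l2 and 9.25 for Cox4i1 to Cox4i2, below the ranges given.

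Both members that did not pass the filter are tissue forms of complex IV. Cox8b, the muscle form of subunit 8, had 0 counts in every library, which allows up to 3 counts, or 0.0311 to 0.0373 CPM. Cox7b2, a testis form, had 17 and 2 counts in control and 0 in both knockdown libraries. Its partner Cox7b was at 34.5 and 38.3 CPM in control and 38.6 and 23.3 CPM in knockdown.

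**Figure D3:**
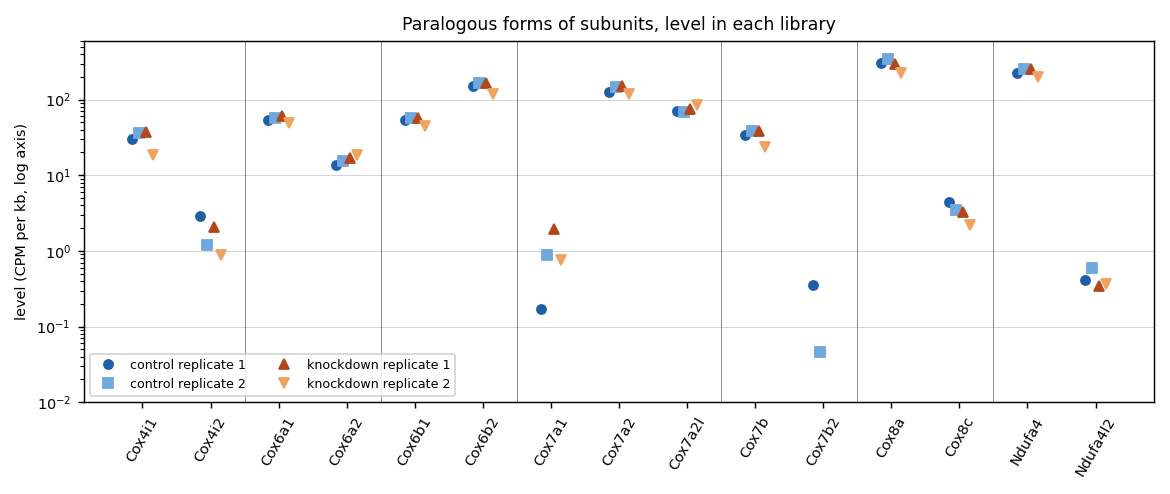
The y axis gives the level in CPM per kb on a log axis for paralogous forms, with families set apart by vertical lines and 1 symbol per library (values of 0 are not drawn). Cox6b2 lies above Cox6b1 in all 4 libraries, while in the families of subunits 4, 6a and 8 the widespread form is the higher one.

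Complex V, the ATP synthase, summed to 776 and 809 CPM in control and 741 and 729 CPM in knockdown. Both knockdown libraries were below both controls, by 0.11 on the log2 scale between the means (exact permutation p = 0.333, the smallest possible). The catalytic head is made by 5 of its genes. Atp5b, the catalytic beta subunit, took 37.8% of the sum and was at 316 and 291 CPM in control and 254 and 292 CPM in knockdown (log2 fold change -0.15, SE 0.12). Atp5a1, the alpha subunit that alternates with beta in the head, was at 63.5 and 75.5 CPM in control and 47.5 and 62.6 CPM in knockdown. Its groups do not overlap (log2 fold change -0.34, SE 0.19, unadjusted p 0.131). Per length Atp5b was at 151 ± 13.3 and Atp5a1 at 25.2 ± 4.64 CPM per kb. Atp5c1, the rotor's gamma subunit, was at 83.6 and 80.7 CPM in control and 79.1 and 80.4 CPM in knockdown, among the closest values of any member.

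Atp5d, the delta subunit of the rotor, had the widest spread. It had 174 and 365 counts in control and 348 and 12 in knockdown, or 1.96, 4.54, 3.60 and 0.128 CPM. The low value belongs to knockdown replicate 2 alone, and the log2 fold change was -0.80 with an SE of 1.32. Without knockdown replicate 1 it was -4.65, with an adjusted p of 0.171 (edgeR), the smallest of any member in any fit. Atp5e, the epsilon subunit, was at 14.3 and 18 CPM in control and 18.7 and 15.0 CPM in knockdown.

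The ring of c subunits is encoded by 3 genes for the same mature protein. Atp5g1 was at 61.9 and 75.6 CPM in control and 79.6 and 42.1 CPM in knockdown. Atp5g2 was at 10.8 and 11.9 CPM in control and 10.3 and 9.69 CPM in knockdown, and Atp5g3 at 10.5 and 16.0 CPM in control and 17.4 and 12 CPM in knockdown. In CPM Atp5g1 was thus highest in every library, while per length the order depends on which Atp5g1 transcript is taken. With its longest principal transcript, of 4715 bases, Atp5g1 was at 0.94 of the level of Atp5g2, and with its shortest, of 596 bases, at 4.50 times that level.

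The peripheral stalk holds the head still. Its subunit Atp5f1 was at 103 and 107 CPM in control and 101 and 111 CPM in knockdown, with a 95% interval from -0.29 to 0.31. The other stalk genes, Atp5h, Atp5j and Atp5o, were each lowest in knockdown replicate 2, at 14.5, 6.72 and 8.77 CPM. Among small membrane subunits Atp5j2 was at 19.9 and 20.6 CPM in control and 20.7 and 20.6 CPM in knockdown, and Atp5k at 8.07 and 9.10 CPM in control and 9.997 and 9.71 CPM in knockdown. Atp5mpl was at 25.5 and 30.7 CPM in control and 26.7 and 25.4 CPM in knockdown. Atp5s was at 1.84 and 4.10 CPM in control and 4.02 and 4.24 CPM in knockdown.

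**Figure D4:**
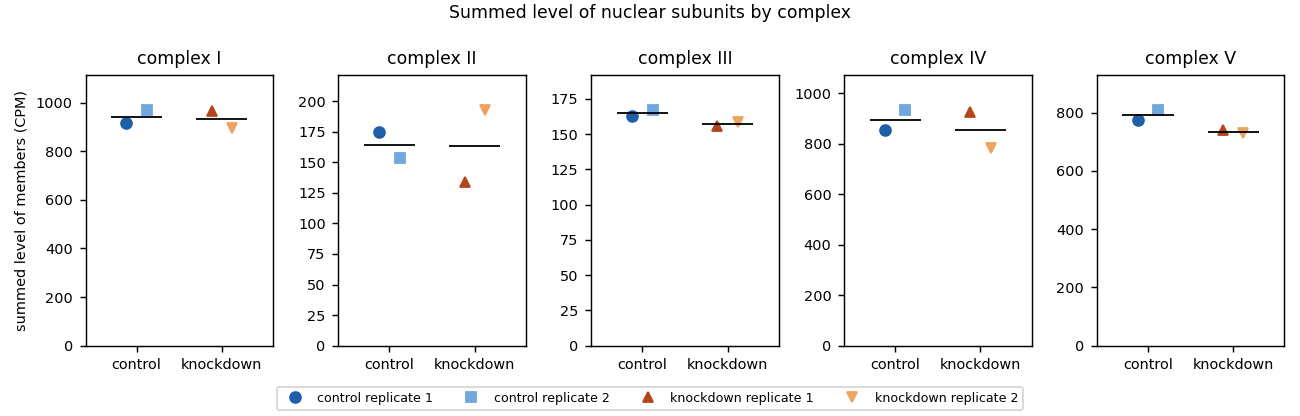
The y axis of each panel gives the summed CPM of a complex's members, starting at 0, with 1 symbol per library and a line at the mean of 2. Complex II spans 134 to 193 CPM with both ends in knockdown, and the knockdown libraries lie below the controls in complexes III and V.

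Knockdown replicate 2 was below knockdown replicate 1 for 63 of the 84 tested members, or 75.0%, against 51.0% of all genes tested. The median log2 difference was -0.20, against -0.02 over all genes tested. Between controls, replicate 2 was above replicate 1 for 62 members, or 73.8%, against 50.7% of all genes tested, with a median of 0.15. The median absolute difference was 0.33 between the knockdown replicates, 0.24 between the control replicates and 0.15 between the groups, where each group is a mean of 2 libraries. Over all genes tested these medians were 0.54, 0.36 and 0.30, in the same order. Many of those genes have fewer counts. At a mean of at least 10 CPM, knockdown replicate 2 was the lower for 39 of 56 members, or 69.6%. The share was 38.9% of the 7454 protein-coding genes at that level. Control replicate 2 was the higher for 43 of the 56, or 76.8%, against 47.0%.

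These mRNAs are short, with a median of 849.5 bases among the tested members against 2828 among all protein-coding genes tested. Of the 42 members of at most 849 bases, 38 were lower in knockdown replicate 2 than in knockdown replicate 1, with a median log2 difference of -0.37. Of the 42 longer members, 25 were lower, with a median of -0.08. Among all protein-coding genes tested the shares were 67.9% of the 879 short and 48.9% of the 16171 longer ones. Among those with a mean of at least 10 CPM they were 76.2% of 260 short and 37.5% of 7194 longer ones. In the controls, replicate 2 was higher for 36 of the 42 short members and 26 of the 42 longer ones, against 64.7% of all short and 49.3% of all longer genes. Length here is that of the longest principal transcript. Ndufb2 (4371 or 455 bases), Atp5g1 (4715 or 596) and Uqcrq (1521 or 405) would count as short by their shortest. The part of transcript length in these differences was not tested.

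The longer members that went the other way in knockdown replicate 2 include Sdha, Uqcrc2, Atp5b and Atp5a1 above and Ndufa10, an accessory subunit of complex I, at 120 and 99 CPM in control and 92.5 and 144 CPM in knockdown. These 5 were named after their values were seen. Across the 84 members, the difference between knockdown replicates had a Spearman rho of 0.30 with transcript length and -0.23 with GC content. Across 17050 protein-coding genes these were 0.06 and -0.09. The fold change had a rho of -0.01 with length and -0.32 with GC content, against -0.12 with GC content across 17050 protein-coding genes. These values are across genes of the same 4 libraries, which are not independent replicates.

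**Figure D5:**
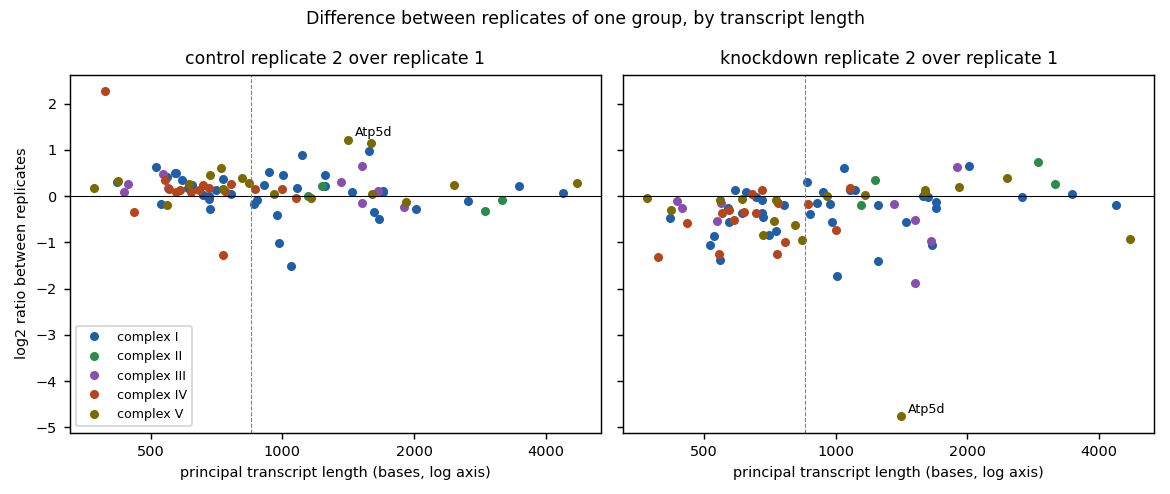
The y axes give the log2 ratio of replicate 2 to replicate 1 in control (left) and knockdown (right) for each tested member, against the length of its principal transcript on a log axis, with the dashed line at the median length. In knockdown most points left of the line lie below 0, and Atp5d is the lowest point.

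Leaving out knockdown replicate 1, 13 of 85 members, or 15.3%, had an unadjusted p under 0.05 (edgeR), against 13.1% of the genes then tested. Leaving out knockdown replicate 2, 4 members, or 4.71%, did so, against 8.02% of the genes. The 13 include Atp5d, Cox8a, Ndufs8 and Atp5g1, with values below 0, and Sdha and Ndufa10, above 0. The 4 were Atp5a1, Uqcrc2 and Atp5b, below 0, and Ndufb2, above 0. None passed the adjustment, and the median log2 fold change of the members was -0.17 without knockdown replicate 1 and 0.08 without knockdown replicate 2.

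Many of these genes have processed copies in the genome that can share reads. By alignment, 24 members had 45 copies of at least 95% identity over at least 150 bases among the other genes in the table. For 10 members the copies held over 10% of the member's own counts. Ndufa12 had 812 counts in all and its copy Gm15920 had 766. Atp5g1 had 23195 and its copy Gm10039 had 4465, and Ndufab1 had 58668 against 10124 in its copies. Values of these members depend on how shared reads were assigned, which no source used here states. The exons of 27 members also overlap a gene on the opposite strand.

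Other genes of the pathway gave no calls either. Of 54 tested assembly factors, which build the complexes, 0 were called and 0 had an unadjusted p under 0.05 (edgeR), with 28 above and 26 below 0 and a median log2 fold change of 0.02. Sdhaf2, which helps attach the flavin to Sdha, was at 23.1 and 20.8 CPM in control and 27.6 and 30.2 CPM in knockdown, and Bcs1l, which inserts the Rieske protein, at 7.47 and 5.0 CPM in control and 4.15 and 3.01 CPM in knockdown. Of 18 regulators of mitochondrial biogenesis, 0 were called and 0 had an unadjusted p under 0.05, with a median of -0.07. Nrf1 was at 91.6 and 86.6 CPM in control and 72.4 and 97.6 CPM in knockdown. Gabpa, the DNA-binding part of GABP, was at 61.2 and 94.6 CPM in control and 79.5 and 35.3 CPM in knockdown, and its exons overlap those of Atp5j on the opposite strand. Tfb2m, a mitochondrial transcription factor, was at 89.4 and 86.8 CPM in control and 107 and 92.8 CPM in knockdown, and Esrra at most at 0.423 CPM.

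Of 14 carriers and exchangers that serve the chain, 0 were called and 1 had an unadjusted p under 0.05, against 3.85% of the genes tested. The fold change was above 0 for 4 of the 14, or 28.6%, against 49.7% of the genes tested. It was Etfdh, which feeds electrons from fat oxidation into the chain, at 7.41 and 10.3 CPM in control and 5.15 and 2.27 CPM in knockdown (log2 fold change -1.26, SE 0.48, unadjusted p 0.0415). Gpd2 was at 46.2 and 49.2 CPM in control and 39.1 and 31.9 CPM in knockdown. Cycs, the widespread cytochrome c, was at 117 and 129 CPM in control and 142 and 108 CPM in knockdown, against at most 2.36 CPM for the testis form Cyct.

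The 13 protein genes of mitochondrial DNA summed to 38156 and 34842 CPM in control and 40407 and 35746 CPM in knockdown. All 13 were lower in control replicate 2 than in control replicate 1, where most nuclear members and 50.7% of all genes tested were higher. All 13 were also lower in knockdown replicate 2 than in knockdown replicate 1, against 51.0% of all genes tested. The 13 genes were read in the same 4 libraries and are not independent replicates. None of the 13 was called, and 1 had an unadjusted p under 0.05, against 3.85% of the genes tested. It was mt-Atp6, with an unadjusted p of 0.0242 (edgeR, log2 fold change 0.21, SE 0.07). For mt-Atp8 the unadjusted p was 0.0753, with 1725 and 1714 CPM in control and 2164 and 1835 CPM in knockdown.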

How the data were processed

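Poly(A) RNA of 2-cell embryos was measured in 4 libraries, 2 control and 2 knockdown. The authors deposited raw counts by versioned Ensembl ID, whole numbers that differ in total between libraries. HISAT2 2.1.0, Trim Galore 0.6.5, Picard 2.18.2, CASAVA 1.8 and mm10 appear in the submitters' processing notes. Steps not given in the sources used here include counting tool, annotation, strand and duplicates. The cDNA was amplified first, and no molecular identifier is named, so a floor of 3 counts covers counting error alone.

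Symbols, coordinates and transcript lengths came from GENCODE M21 (GRCm38, the assembly of mm10), to which 53620 of 53715 rows matched by ID. All genes were fitted with edgeR 4.0.16 in R 4.3.3 (filterByExpr, minimum of 10 counts, TMM scaling, quasi-likelihood F-test, group as the only term, Benjamini-Hochberg over 25565 genes, threshold 0.05), checked on simulated data. DESeq2 1.42.0, limma 3.58.1 (voom) and other settings were alternatives. CPM are TMM-scaled, and fold changes are knockdown over control with SE and 95% intervals from the F-test. Replicate differences are log2 of counts with 0.5 added. Copies were found with BLAST 2.17.0. No 2 libraries agreed within sampling noise (smallest chi-square 28.8 per degree of freedom).

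The members and lists were chosen with earlier results of these data known. A level per kb uses the longest principal transcript in place of the planned exon union, a choice made after seeing the data with the union kept as an alternative. Genes named were the 3 highest per length and the 2 smallest p in each complex, paralogous forms, members not tested, and 2 genes of each further list, with some others as examples. The values of 1 member are not reported here, while counts and sums include it.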

Additional observations from a re-analysis of the deposited data

How the results depend on the processing

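With RLE size factors, no low-count filter, a mean of at least 10 CPM, DESeq2, limma-voom, the replicate block, each library left out, or only members without a near-identical copy, 0 members were called. Over all genes 0 were called by edgeR with the replicate block and in the other edgeR fits of all libraries, 53 by DESeq2 (20 higher and 33 lower), and 0 to 3 in edgeR fits that left out 1 library, with 3 without knockdown replicate 1 and 2 without knockdown replicate 2. In those fits the lone library of a group is assumed to vary like the others. Deviations from the group means had a correlation of -0.01 between libraries of the same replicate number, over all genes tested. With 2 libraries a group this is a single value. It cannot show whether libraries of the same number share a collection or batch that touched part of the genes. The replicate block gave a median log2 fold change of the members of -0.09. That median ran from -0.17 to 0.08 when 1 library was left out.

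The log2 ratio of summed levels moved by more than the replicate spread with scaling by library total only, to -0.11 for complex III and -0.15 for complex V. For complex II it ran from -0.29 to 0.23 with 1 library left out.

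Of 36 members named by rule and with a fold change, 17 turned direction with a library left out and 5 in another fit, and none was called (smallest adjusted p 0.186, for Cox8a; Atp5d, named as an example, had 0.171). With a mean of at least 10 CPM the values were -0.035 for Sdhd, -0.0103 for Uqcrh, -0.0205 for Cox5a and -0.0181 for Atp5f1. Sdhd was at -0.0033 with limma-voom and -0.0051 with the replicate block, and Cox7a2 at 0.0017 with DESeq2. With 1 library left out, the log2 fold change ran from -0.0505 to 0.083 for Atp5f1, from -0.71 to 0.22 for Atp5g1, from -0.14 to 0.48 for Atp5g3, from -0.84 to 0.16 for Cox4i1, from -1.22 to 0.32 for Cox4i2, from -0.057 to 0.077 for Cox5a, from -0.17 to 0.13 for Cox6a1, from -0.29 to 0.056 for Cox6b1, from -0.44 to 0.077 for Cox6b2, from -0.21 to 0.17 for Cox7a2, from -0.64 to 0.0905 for Cox7b, from -0.34 to 0.13 for Ndufa1, from -0.26 to 0.11 for Ndufa4, from -0.33 to 0.41 for Sdha, from -0.18 to 0.17 for Sdhd, from -0.53 to 0.085 for Uqcrc2, from -0.069 to 0.11 for Uqcrh.

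The length of transcript, an alternative chosen after seeing the data, turned the log2 ratio per kb of Atp5g1 to Atp5g2 to 2.17 (shortest principal transcript) and 1.05 (all exons), of Atp5g1 to Atp5g3 to 2.48 and 1.04, and of Atp5g3 to Atp5g2 to -0.31 (shortest). For 8 members the principal transcripts differ in length by over 1.5 times. With 2 libraries a group, members under about 10 CPM had wide intervals, and a difference of 2-fold was often not detectable there.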
